A study of Homo sapiens with 6 samples.

Results

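HIF double-knockout and VHL-restored RCC10 cells were compared across all genes of the deposited table of counts, with 2 mRNA-seq libraries of each line. These 4 libraries are part of 6 in the series. RCC10 is an established human line of clear cell renal carcinoma. In the knockout line both HIF1A and EPAS1, the genes of HIF-1alpha and HIF-2alpha, were targeted by lentiviral guide RNAs followed by puromycin selection, and in the other line the cells received a lentivirus that carries VHL. The 2 libraries of parental RCC10 are set beside them. Cells of every group were grown in DMEM with 10% serum, and no library of cells with a non-targeting guide or an empty vector was used here. The labels do not say whether either line was a clone or a pool, nor whether the replicates came from separate cultures. The p-values therefore reflect the spread of these libraries alone, which could be technical. The presence of VHL, the loss of HIF alpha genes, the delivery and selection, and the cell population of each line cannot be told apart in this comparison.

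VHL is the part of a ubiquitin ligase that recognises HIF alpha subunits once oxygen-dependent hydroxylases have modified them, and it then marks them for degradation. Without VHL, as in most clear cell renal carcinomas, HIF-1alpha and HIF-2alpha accumulate, pair with ARNT and drive genes of glycolysis, angiogenesis, lipid storage and growth. By design the knockout line has disrupted HIF alpha genes in cells without working VHL, whereas the VHL-restored line keeps both HIF alpha genes and regains the ligase, which has reported partners other than HIF.

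Total counts were 29929116 and 26085121 in the knockout libraries and 27890958 and 27776717 in the VHL-restored libraries, beside 29454611 and 22248126 in the parental ones. Levels below are CPM, counts scaled to a common library size after TMM adjustment, and a mean ± SD is over the 2 libraries of a line. A log2 difference is always knockout minus VHL-restored, so a positive value is higher in the knockout line, and it is given ± SE. Where one level is set against another with no line named, the knockout line comes first. Of 19009 genes, 18273 had a count in some library and were tested. Over genes, which are no independent replicates, the Spearman correlation was 0.993 to 0.994 between replicates and 0.962 to 0.963 between the 2 lines. Markers of renal epithelium were kept in part. PAX8, the kidney lineage factor, was at 363 ± 14.5 CPM in the knockout and 407 ± 11.96 CPM in the VHL-restored line, and KRT18, a keratin of simple epithelium, was at 842 ± 38.7 and 955 ± 46.9 CPM. CDH6, a cadherin of the proximal tubule, was at 11.2 ± 1.88 and 28.4 ± 2.35 CPM, both below the parental 67.5 and 64.3 CPM. CUBN, an endocytic receptor of the same segment, was at 0.492 ± 0.0186 and 0.787 ± 0.253 CPM against 6.13 and 6.57 CPM in the parental libraries. LRP2, the receptor that works with it, had 0 counts and 1 count.

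At an adjusted p under 0.05 (edgeR), 10225 of the 18273 genes were called, 56% of those tested. The calls split evenly, with 5113 genes higher in the knockout line (28%) and 5112 higher in the VHL-restored line (28%). Counts of list members called between the lines, given below, stand beside this 28% in each direction. A difference of at least 2-fold was called for 3038 genes (16.6%), of which 1312 were higher in the knockout (7.18%) and 1726 in the VHL-restored line (9.45%). At least 4-fold, 448 genes were higher in the knockout (2.45%) and 707 in the VHL-restored line (3.87%), and at least 10-fold the counts were 195 (1.07%) and 298 (1.63%). The replicates of the 2 lines did not overlap for 72.6% of the genes tested, so a lack of overlap alone sets few genes apart. In comparisons with the parental cells, which share these libraries, 54.1% of genes were called for the knockout line and 54.2% for the VHL-restored line.

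**Figure D1:**
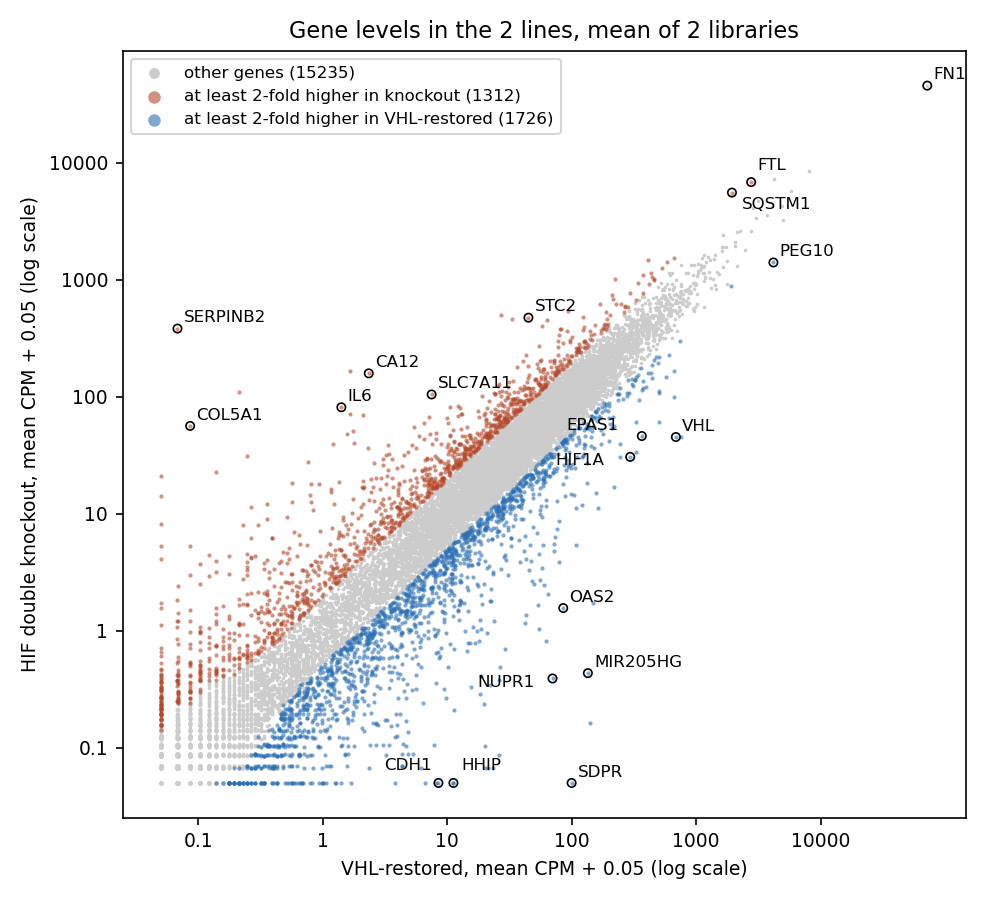
Mean level of each gene in VHL-restored (x axis) and HIF double-knockout cells (y axis), in CPM + 0.05 on log scales, with the 1312 and 1726 genes called at least 2-fold higher in either line in colour. SERPINB2 and COL5A1 lie at the left edge, near 0 in VHL-restored cells, and SDPR lies at the lower edge, at 0 in knockout cells.

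The targeted genes were read in every library first. HIF1A was at 29.6 and 31.6 CPM in the knockout libraries, 304 and 286 CPM in the VHL-restored libraries and 69.5 and 72.9 CPM in the parental libraries. The lines did not overlap, and the log2 difference was -3.27 ± 0.07 (adjusted p = 1.2e-26, edgeR). The VHL-restored line held more HIF1A mRNA than the parental cells and the knockout line less, and both differences passed. EPAS1 was at 44.4 and 47.97 CPM in the knockout, 363 and 369 CPM in the VHL-restored and 352 and 349 CPM in the parental libraries, a log2 difference of -2.99 ± 0.06 (adjusted p = 1.4e-26, edgeR). Here the VHL-restored line was near the parental level. Transcripts of both targeted genes remained in the knockout line, and counts per gene do not show guide-made edits or protein. VHL was at 43.3 and 47.3 CPM in the knockout and 652 and 723 CPM in the VHL-restored libraries, against 38.8 and 39.5 CPM in the parental ones, and the table does not separate introduced from resident transcripts. ARNT, the common partner, differed little, at 51.9 ± 2.44 and 60.2 ± 1.78 CPM (log2 difference -0.21 ± 0.07, adjusted p = 0.00979, edgeR). This ARNT call was lost without knockout replicate 1 (adjusted p = 0.0925, edgeR) or without VHL-restored replicate 2 (adjusted p = 0.058, edgeR). ARNT2, a related subunit, was higher in the knockout line, at 50.9 ± 2.10 against 31.9 ± 3.26 CPM (log2 difference 0.68 ± 0.08). Of 7 genes for HIF subunits and partners, 5 were higher in the VHL-restored line and ARNT2 alone in the knockout. Among the 5, CREBBP (-0.15 ± 0.07, adjusted p = 0.0471, edgeR) lost its call with DESeq2 (adjusted p = 0.0636, DESeq2). It also lost it with limma-voom (adjusted p = 0.0561, limma-voom) and with the 4 libraries alone (adjusted p = 0.122, edgeR). Without VHL-restored replicate 1 the CREBBP difference was -0.05. Of 9 oxygen-sensing and collagen hydroxylases, 5 were higher in the knockout, among them EGLN1, the main HIF prolyl hydroxylase (log2 difference 0.33 ± 0.06), and 2 in the VHL-restored line. The genes beside EGLN1 on chromosome 1 had a median of 0.36, so its difference was no larger than theirs.

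Genes that hypoxia induces were low in both lines relative to the parental cells, but most were not equally low. Of 30 tested, 27 were called lower than parental in the knockout line (27.5% of all genes) and 28 in the VHL-restored line (27.7% of all genes), 2 counts that share the parental libraries. Between the lines 16 of the 30 were higher in the knockout, 5 were higher in the VHL-restored line and 9 did not pass, with a median log2 difference of 0.59 against 0 over all genes. EGLN3, the oxygen-sensing hydroxylase most tightly tied to HIF, was at 419 and 418 CPM in the parental libraries, 0.444 and 0.272 CPM in the knockout and 0.322 and 0.0715 CPM in the VHL-restored libraries. Both lines sat near the limit of detection, and the difference between them did not pass (adjusted p = 0.179, edgeR), though it did without VHL-restored replicate 1 (adjusted p = 0.0138, edgeR). PDK1, which diverts pyruvate from mitochondria, was at 11.7 ± 0.955 and 9.96 ± 0.133 CPM and did not pass either (adjusted p = 0.0545, edgeR). Without knockout replicate 2 the PDK1 difference passed, at 0.31 (adjusted p = 0.0334, edgeR).

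STC2, encoding a secreted stanniocalcin, showed the widest gap of this list. It was at 485 and 465 CPM in the knockout libraries, 44.7 and 44.9 CPM in the VHL-restored libraries and 523 and 525 CPM in the parental libraries. The knockout line was thus near the parental level, and the log2 difference between the lines was 3.41 ± 0.06 (adjusted p = 3.3e-28, edgeR). ANGPTL4, a secreted inhibitor of lipoprotein lipase, was at 10.9 and 7.73 CPM in the knockout and 1.82 and 1.001 CPM in the VHL-restored libraries, with a log2 difference of 2.72 ± 0.19. SLC2A1, encoding the glucose transporter GLUT1, was at 367 and 359 CPM in the knockout, 191 and 194 CPM in the VHL-restored and 1544 and 1473 CPM in the parental libraries, so both lines were low and the VHL-restored line was lower by a log2 difference of 0.91 ± 0.05. VEGFA, the angiogenic growth factor, had the same order, at 123 ± 0.114 CPM in the knockout and 78.96 ± 4.33 CPM in the VHL-restored line. The direction was not shared by every member. PLOD2, a collagen lysyl hydroxylase, was higher in the VHL-restored line, at 166 and 161 CPM against 73.6 and 83.2 CPM (log2 difference -1.06 ± 0.06), and so were BNIP3L, a mitophagy receptor (-1.06 ± 0.07), and DDIT4, an mTOR inhibitor (-0.88 ± 0.06). ADM, encoding adrenomedullin, was at 309 ± 10.6 and 309 ± 15.4 CPM, above the parental 176 and 179 CPM in both lines, with no difference between them that passed (log2 difference 0.00 ± 0.06).

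Genes tied to HIF-2alpha in this kind of carcinoma had the same leaning, with 10 of 18 higher in the knockout, 3 higher in the VHL-restored line and a median of 0.74. CA12, a membrane carbonic anhydrase, was at 162 and 155 CPM in the knockout libraries, 2.11 and 2.47 CPM in the VHL-restored libraries and 472 and 447 CPM in the parental libraries. Its 69.2-fold difference was the largest of the list (log2 difference 6.11 ± 0.10, adjusted p = 1.3e-29, edgeR). EDN1, encoding endothelin-1, was at 3.56 and 3.34 CPM in the knockout and 0.179 and 0.214 CPM in the VHL-restored libraries, a log2 difference of 4.10 ± 0.29. CCND1, encoding cyclin D1, was at 744 and 737 CPM in the knockout and 379 and 365 CPM in the VHL-restored libraries, on either side of the parental 574 and 577 CPM. IGFBP3, which binds insulin-like growth factors, went the other way, at 111 and 118 CPM against 351 and 386 CPM (log2 difference -1.69 ± 0.06), although both lines were far under the parental 3520.5 and 3486 CPM. PLIN2, the coat protein of lipid droplets, was also higher in the VHL-restored line (-0.75 ± 0.06). STC1 had 0 counts in both lines.

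Glucose uptake and glycolysis genes were higher in the knockout line in 15 of 25 cases and higher in the VHL-restored line in 2, with a median log2 difference of 0.55. HK1, the hexokinase of most tissues, led the list at 283 and 259.9 CPM in the knockout and 56.6 and 52.5 CPM in the VHL-restored libraries (log2 difference 2.32 ± 0.07). The knockout line was near the parental 259 and 259.9 CPM here, and the VHL-restored line was lower than both. PGAM1, HK2 and PFKP followed with log2 differences of 1.28 ± 0.07, 1.18 ± 0.08 and 1.17 ± 0.06. GAPDH, ENO1 and PKM, abundant enzymes of the lower pathway, did not pass, though GAPDH passed without VHL-restored replicate 2 (log2 difference 0.12, adjusted p = 0.00644, edgeR). Among 73 subunits of the respiratory chain and ATP synthase, 39 were higher in the knockout and 15 in the VHL-restored line, with a median of 0.20. The counts of both lists stand beside 28% of all genes in each direction. Genes often used as references, described below, had a median of 0.44. The glycolysis median was little above that, and the respiratory chain median was below it.

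Reported partners and substrates of VHL other than HIF leaned to the line that carries VHL. Of 24 tested, 15 were higher in the VHL-restored line and 2 in the knockout, with a median of -0.42. The gaps were small: ZHX2, a transcription factor reported as a VHL substrate, was at 31.8 and 29.3 CPM in the knockout and 52.7 and 53.1 CPM in the VHL-restored libraries (log2 difference -0.79 ± 0.07), with 243 and 228 CPM in the parental libraries. The kinase TBK1 was at 38.4 ± 1.17 and 50.6 ± 0.521 CPM (-0.40 ± 0.07). Transcript levels carry no information on the degradation of these proteins. Of 11 genes of the VHL ligase and its cofactors, 6 were higher in the knockout line, among them the scaffold CUL2 at 113 ± 9.54 against 64.9 ± 1.03 CPM and TCEB1, encoding elongin C, at 77.9 ± 2.44 against 52.04 ± 2.97 CPM. Besides VHL itself, USP20 was higher in the VHL-restored line (-0.64 ± 0.11).

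Components of the primary cilium, a structure whose upkeep in renal cells is known to involve VHL, were mostly higher in the VHL-restored line. Of 45, 27 were higher there, 7 were higher in the knockout and 11 did not pass, with a median of -0.32. TTC30A, a subunit of the intraflagellar transport machinery, was at 3.52 and 4.31 CPM in the knockout and 9.51 and 9.15 CPM in the VHL-restored libraries (log2 difference -1.26 ± 0.13). DYNC2LI1, of the retrograde dynein motor, was at 10.5 and 9.71 CPM in the knockout and 21.6 and 21.1 CPM in the VHL-restored libraries (-1.08 ± 0.10), and IFT172 at 23.7 and 24.3 CPM in the knockout and 51.8 and 48.99 CPM in the VHL-restored libraries (-1.07 ± 0.08). The 3 genes did not overlap between the lines. In parental libraries the levels were 14.2 and 12.1 CPM of TTC30A, 17.3 and 21.3 CPM of DYNC2LI1 and 49.5 and 47.7 CPM of IFT172. Against the parental cells, whose libraries both comparisons share, 35 of the 45 were lower and 3 higher in the knockout line (27.5% and 26.6% of all genes). In the VHL-restored line 21 were lower and 10 higher (27.7% and 26.5% of all genes). TCTN3, of the transition zone, was an exception, at 113 ± 0.447 CPM in the knockout against 67.2 ± 1.04 CPM (0.74 ± 0.06).

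The genes with the widest gaps in favour of the knockout line were led by SERPINB2, an inhibitor of plasminogen activators. It was at 409 and 357 CPM in the knockout libraries, with 1 count over both VHL-restored libraries and 1 count over both parental libraries. The ratio of the lines was 21525, with a 95% counting interval of 3863 to 850230.0. COL5A1, a fibrillar collagen chain, was at 58.5 and 54.2 CPM in the knockout and 98.8 and 102 CPM in the parental libraries, and had 2 counts over the VHL-restored libraries (ratio 1579.8, interval 437 to 13051). CMBL, a hydrolase, and FERMT1, an integrin activator, were at 21.1 ± 1.34 and 14.1 ± 0.765 CPM in the knockout and had 0 counts in the VHL-restored line, making them at least 393-fold and 263-fold higher against a floor of 3 counts over the line. The parental libraries held 9.54 and 9.57 CPM of CMBL and 10.4 and 8.91 CPM of FERMT1. Such intervals and bounds cover counting error alone.

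Further genes on that side were present at low levels in the VHL-restored line. CALB2, encoding the calcium-binding protein calretinin, was at 118 and 104 CPM in the knockout and 0.0715 and 0.250 CPM in the VHL-restored libraries, with 2.22 and 1.76 CPM in the parental ones. PTGIS, the synthase of prostacyclin, was at 168 and 162 CPM against 1.61 and 1.57 CPM (log2 difference 6.69 ± 0.11). IL6, the inflammatory cytokine, was at 82.7 and 79.98 CPM against 1.11 and 1.61 CPM (5.90 ± 0.12, adjusted p = 6.4e-27, edgeR). The parental libraries held 1.99 and 1.59 CPM of IL6, close to the VHL-restored line. PANX2 (7.28 ± 0.20), SH2D4B (7.92 ± 0.23), AUTS2 (5.71 ± 0.22), DTNA (5.28 ± 0.21) and the Wnt ligand WNT5B (5.12 ± 0.17) completed the 15 highest genes with CA12, C15orf48 and MIR147B.

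On the side of the VHL-restored line the widest gap was that of SDPR, also called CAVIN2, a coat protein of caveolae. It was at 98.5 and 101 CPM in the VHL-restored libraries and had 0 counts in the knockout line, a level at least 1829-fold higher. The parental libraries held 1.75 and 0.882 CPM. HHIP, a secreted antagonist of hedgehog ligands, was at 10.7 and 11.6 CPM and GPR110, an adhesion receptor, at 11.1 and 11.1 CPM, both with 0 counts in the knockout and at most 2 counts in the parental line. They were at least 204-fold and 203-fold higher than in the knockout. EPHA7, an ephrin receptor, was at 146 and 134 CPM in the VHL-restored and 98.2 and 101 CPM in the parental libraries against 0.0684 and 0.155 CPM in the knockout (log2 difference -10.27 ± 0.17, adjusted p = 1.3e-29, edgeR). NUPR1, a small stress-response regulator, was at 65.8 and 74.4 CPM in the VHL-restored and 99.6 and 95.1 CPM in the parental libraries against 0.410 and 0.272 CPM in the knockout (-7.65 ± 0.16). EPHA7 and NUPR1 were thus close to the parental level in the VHL-restored line and nearly missing in the knockout.

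RASAL1, a GTPase-activating protein for Ras, GSG1L, an auxiliary protein of AMPA receptors, and C19orf21, also called MISP and a binder of actin, had 1, 1 and 2 counts in the knockout line and were at 19.9 ± 0.848, 21.2 ± 0.617 and 25.8 ± 1.10 CPM in the VHL-restored line. A gene listed as M1 followed the same order with 23.3 ± 1.55 CPM, but that symbol was used for more than 1 gene. PPL, encoding the junction protein periplakin, was at 152 and 145 CPM in the VHL-restored libraries, 1.74 and 1.63 CPM in the knockout and 65.9 and 61.5 CPM in the parental libraries (-6.45 ± 0.11). TFPI, the inhibitor of the tissue factor pathway, was at 23.8 and 28.3 CPM in the VHL-restored, 0.308 and 0.350 CPM in the knockout and 26.05 and 28.5 CPM in the parental libraries (-6.29 ± 0.19). The ephrin receptor EPHB3 (-6.71 ± 0.21) and the potassium channel subunit KCNJ16 (-6.30 ± 0.15) completed this set with MIR205HG and MIR205.

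Each side of the comparison held the host transcript of a microRNA. MIR205HG, the host of miR-205, was at 127 and 142 CPM in the VHL-restored libraries, 0.342 and 0.427 CPM in the knockout and 1.15 and 0.794 CPM in the parental libraries (log2 difference -8.45 ± 0.15, adjusted p = 7.5e-29, edgeR). MIR205, which lies inside it, was at 19.03 and 20.8 CPM in the VHL-restored libraries and had 3 counts over the knockout libraries. C15orf48, a subunit-like protein of respiratory complex IV whose transcript carries miR-147b, was at 71.1 and 71.7 CPM in the knockout and 1.54 and 1.64 CPM in the VHL-restored libraries (5.48 ± 0.11), and MIR147B at 28.2 and 26.8 CPM in the knockout and 0.751 and 0.679 CPM in the VHL-restored libraries (5.26 ± 0.15). These libraries were made from poly(A) RNA, so the counts at the 2 microRNA genes are those of longer transcripts that overlap them and not of the mature microRNAs. The mature sequences encoded there are shown because each side's host carries a different seed, from RefSeq on GRCh38.p14, with bases 2 to 8, the seed, in capitals. MIR205 gives miR-205-5p at chr1:209432166-209432187 and miR-205-3p at chr1:209432203-209432223, and MIR147B gives miR-147b-3p at chr15:45433098-45433118, each on the plus strand.
hsa-miR-205-5p: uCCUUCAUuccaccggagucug
hsa-miR-205-3p: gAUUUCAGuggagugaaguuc
hsa-miR-147b-3p: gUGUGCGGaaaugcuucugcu

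**Figure D2:**
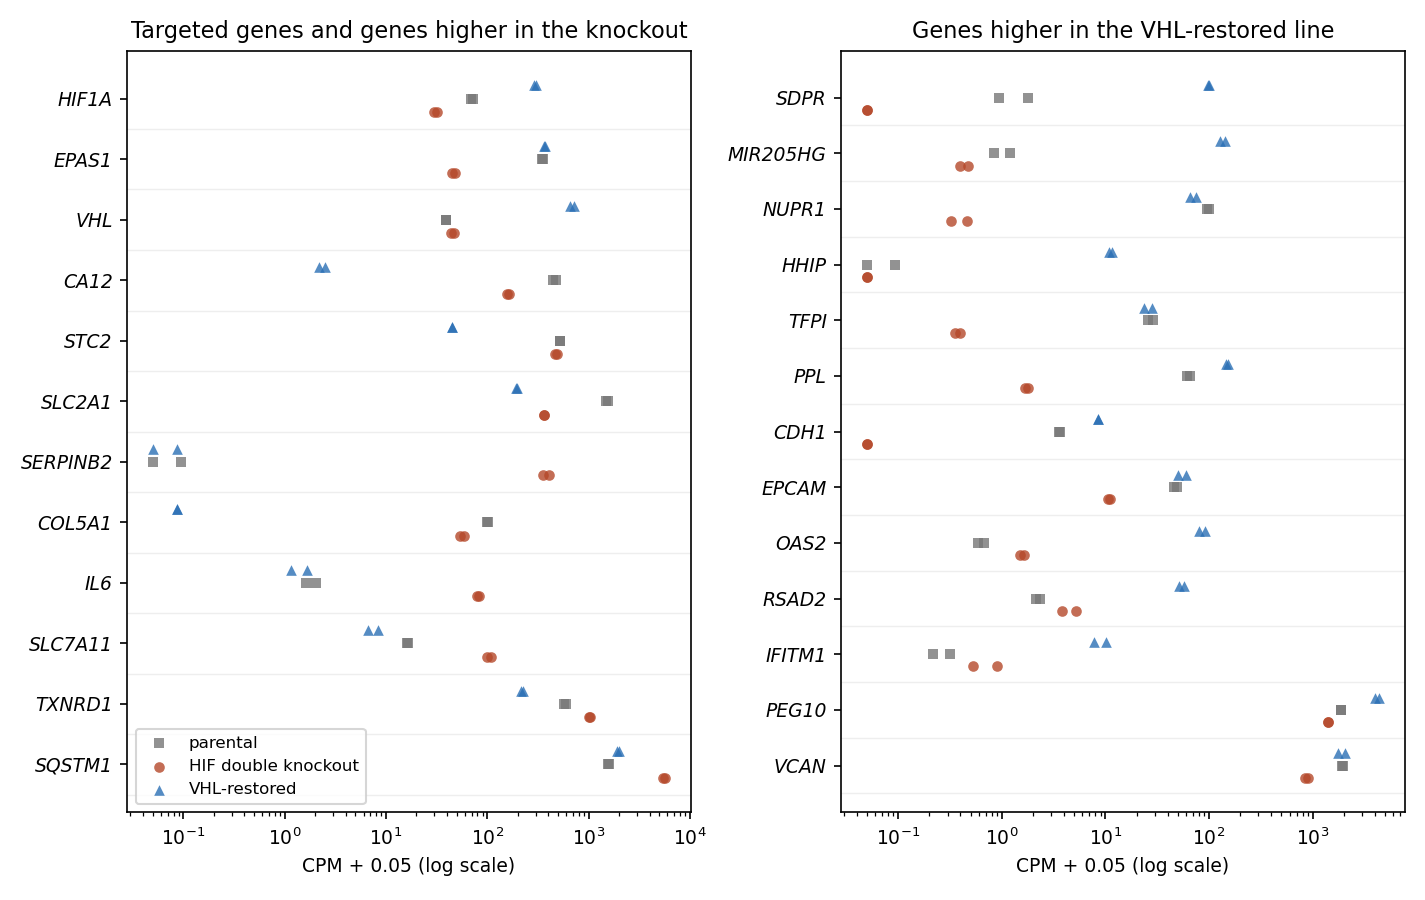
Level of 25 genes in each of the 6 libraries, in CPM + 0.05 on a log scale, with parental cells as squares, HIF double-knockout cells as circles and VHL-restored cells as triangles. Replicates lie close together, and for genes such as COL5A1, NUPR1 and TFPI one engineered line stays nearer the parental level while the other is far below it.

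In absolute level the largest gaps in favour of the knockout line, among genes at least 2-fold apart, were those of FTL and SQSTM1. FTL, the light chain of the iron store ferritin, was at 7012 and 6693 CPM in the knockout and 2609.6 and 2927 CPM in the VHL-restored libraries (log2 difference 1.31 ± 0.05). SQSTM1, the autophagy receptor p62, was at 5696 and 5450.1 CPM in the knockout and 1904 and 1976 CPM in the VHL-restored libraries (1.52 ± 0.05). The parental libraries held 2451 and 2333 CPM of FTL and 1608 and 1545 CPM of SQSTM1, below the knockout line for both. CD44, a hyaluronan receptor, was at 1484 ± 17.6 against 408 ± 9.48 CPM, and TNFSF10, the death ligand TRAIL, at 1538 ± 95.7 against 666 ± 33.4 CPM. PRDX1, TXNRD1, PTTG1IP, AKR1B1, NOTCH2 and TFRC made up the rest of the first 10, with log2 differences from 1.23 (AKR1B1) to 2.19 (TXNRD1).

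In favour of the VHL-restored line, PEG10, a retrotransposon-derived imprinted gene, was at 4390.5 and 3967 CPM against 1409 and 1407 CPM (-1.57 ± 0.05), and VCAN, the proteoglycan versican, at 2038 and 1748 CPM in the VHL-restored against 848 and 911 CPM in the knockout libraries (-1.11 ± 0.06). DPYSL3, a regulator of the cytoskeleton, was at 753 and 745 CPM in the VHL-restored, 46.8 and 44.3 CPM in the knockout and 175 and 169 CPM in the parental libraries (-4.04 ± 0.06). The laminin chain LAMA5 was at 556 and 445 CPM in the VHL-restored against 64.6 and 58.3 CPM in the knockout libraries (-3.02 ± 0.08), and the filaggrin gene FLG at 704 and 625 CPM in the VHL-restored against 104 and 94.8 CPM in the knockout libraries (-2.74 ± 0.07). TMPO, PHLDA1, AIF1L and PPME1 were 4.003-fold, 2.49-fold, 3.84-fold and 4.67-fold higher in the VHL-restored line. FN1, encoding fibronectin, had the most counts of any gene in each of the 6 libraries and was at 76063 and 67983 CPM in the VHL-restored against 46774 and 44763 CPM in the knockout libraries (-0.65 ± 0.05).

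Interferon-stimulated genes, which cells switch on after interferon or nucleic acid sensing, were the list with the highest number of members on the VHL-restored side. Of 54 tested, 41 were higher in the VHL-restored line, 3 were higher in the knockout and 10 did not pass, with a median log2 difference of -0.996. OAS2, an enzyme that senses double-stranded RNA, was at 80.2 and 90.7 CPM in the VHL-restored libraries, 1.44 and 1.59 CPM in the knockout and 0.539 and 0.617 CPM in the parental libraries (log2 difference -5.82 ± 0.12, adjusted p = 5.2e-27, edgeR). RSAD2, the antiviral protein viperin, was at 51.8 and 56.9 CPM in the VHL-restored, 3.76 and 5.13 CPM in the knockout and 2.29 and 2.12 CPM in the parental libraries (-3.62 ± 0.11). For both genes the knockout line was slightly above the parental cells and the VHL-restored line far above. OASL (-5.04 ± 0.14), IFITM1 (-3.75 ± 0.21), SAMD9L (-2.89 ± 0.20), OAS1 (-2.74 ± 0.09) and IFI44L (-2.26 ± 0.07) followed. STAT2 and IRF9, factors that carry the interferon signal, were also higher in the VHL-restored line (-1.11 ± 0.06 and -0.98 ± 0.08). IFI6 (0.40 ± 0.07), IFIT5 (0.47 ± 0.08) and DDX60L (1.18 ± 0.09) were higher in the knockout. Against the parental cells, whose libraries both comparisons share, 33 of the 54 were called higher in the knockout line (26.6% of all genes) and 46 in the VHL-restored line (26.5% of all genes).

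The upstream genes did not all share that direction. Of 30 nucleic acid sensors and interferon regulators, 15 were higher in the VHL-restored line and 6 in the knockout, with a median of -0.34. These counts stand beside 28% of all genes called in each direction. DDX58, encoding the RNA sensor RIG-I, was at 120.2 and 132 CPM in the VHL-restored and 40.6 and 37.8 CPM in the knockout libraries (-1.69 ± 0.07). The interferon receptor subunits were higher in the knockout, IFNAR1 at 56.01 and 56.4 against 26.4 and 28.3 CPM (1.04 ± 0.08), IFNAR2 at 30.3 and 31.9 against 15.6 and 16.01 CPM (0.98 ± 0.08) and IFNGR2 at 65.1 and 67.2 against 29.5 and 30.1 CPM (1.15 ± 0.07). TMEM173, encoding the adaptor STING, was at 61.3 and 59.9 against 28.3 and 28.2 CPM (1.10 ± 0.07). IFNB1, encoding interferon beta, had 1 count in the knockout and 3 counts in the VHL-restored line.

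Genes of MHC class I antigen presentation, many of which respond to interferon, went against the direction of the interferon list. Of 21, 17 were higher in the knockout line and 2 in the VHL-restored line, with a median of 0.39. B2M, the light chain of class I molecules, was at 556 and 609 CPM in the knockout and 253 and 284 CPM in the VHL-restored libraries, with 375 and 373 CPM in the parental ones (1.12 ± 0.06). HLA-B was at 399 and 379.9 against 193 and 209 CPM (0.96 ± 0.06) and ERAP2, which trims peptides, at 23.2 and 21.5 against 8.94 and 8.61 CPM (1.35 ± 0.10). PSMB9, an immunoproteasome subunit, and PSME1, a proteasome activator, were higher in the VHL-restored line (-0.24 ± 0.09 and -0.24 ± 0.06). The PSMB9 call was lost without either knockout library (adjusted p = 0.119 and 0.153, edgeR) and without VHL-restored replicate 2 (0.166).

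Promoters of the interferon list are shown because the members moved mostly together. The letters GAAA, any 2 bases and GAAA again, the core of the interferon-stimulated response element, were searched on both strands in RefSeq windows of equal length around each gene's start site (GRCh38.p14). They occurred in 1255 of 35116 such windows (3.57%) and in 29 of the 44 matched to the interferon list (65.9%). Of the 29 with a match, 22 were higher in the VHL-restored line and 3 in the knockout, and of the 15 without, 12 and 0. Genes with and without a match were thus found on the VHL-restored side. OAS2 and OASL have no entry in the promoter table, and the RSAD2 window has no match. The 4 promoters below run up to 30 bases past the start site on the gene's own strand, with matches in capitals. IFITM1, IFI44L and OAS3, at 487 and 466 CPM in the VHL-restored against 222 and 213 CPM in the knockout libraries, were higher in the VHL-restored line and DDX60L in the knockout, at 24.9 and 25.4 against 10.9 and 11.3 CPM. Each of these promoters has 2 matches, on either side of the comparison. They lie at chr11:313790-314069 (IFITM1, plus strand), chr1:78620198-78620477 (IFI44L, plus), chr12:112938224-112938503 (OAS3, plus) and chr4:168480463-168480742 (DDX60L, minus).
IFITM1: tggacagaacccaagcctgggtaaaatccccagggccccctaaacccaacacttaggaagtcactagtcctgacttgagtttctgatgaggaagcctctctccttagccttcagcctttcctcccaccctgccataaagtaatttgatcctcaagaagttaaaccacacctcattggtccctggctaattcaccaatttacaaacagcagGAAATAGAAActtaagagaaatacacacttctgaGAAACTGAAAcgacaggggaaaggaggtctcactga
IFI44L: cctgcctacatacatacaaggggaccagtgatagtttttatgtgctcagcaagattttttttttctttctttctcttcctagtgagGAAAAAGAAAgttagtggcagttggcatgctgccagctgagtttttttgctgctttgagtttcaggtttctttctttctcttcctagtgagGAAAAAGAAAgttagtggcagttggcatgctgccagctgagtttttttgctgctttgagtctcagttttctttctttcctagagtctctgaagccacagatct
OAS3: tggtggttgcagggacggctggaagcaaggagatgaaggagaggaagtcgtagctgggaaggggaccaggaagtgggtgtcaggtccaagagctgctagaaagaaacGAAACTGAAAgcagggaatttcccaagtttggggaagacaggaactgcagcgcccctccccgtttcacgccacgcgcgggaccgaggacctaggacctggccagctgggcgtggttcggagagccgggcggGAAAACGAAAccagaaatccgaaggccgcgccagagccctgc
DDX60L: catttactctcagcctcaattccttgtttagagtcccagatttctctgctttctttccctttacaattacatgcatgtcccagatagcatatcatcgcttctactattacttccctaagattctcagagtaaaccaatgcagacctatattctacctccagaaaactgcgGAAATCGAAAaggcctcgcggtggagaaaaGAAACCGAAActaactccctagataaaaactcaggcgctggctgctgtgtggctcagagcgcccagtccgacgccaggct

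Antioxidant genes driven by NRF2, the factor that KEAP1 holds in check until oxidants release it, lay on the knockout side. Of 28, 20 were higher in the knockout line, 13 of them at least 2-fold, and 4 were higher in the VHL-restored line, with a median of 0.96. SLC7A11, the cystine importer, was at 99.5 and 109.9 CPM in the knockout, 6.65 and 8.22 CPM in the VHL-restored and 15.97 and 16.5 CPM in the parental libraries (3.81 ± 0.09, adjusted p = 5.4e-25, edgeR). TXNRD1, encoding thioredoxin reductase, was at 999.8 and 1027 CPM in the knockout, 227 and 217 CPM in the VHL-restored and 578 and 592 CPM in the parental libraries (2.19 ± 0.06). For these genes the 2 engineered lines lay on opposite sides of the parental cells. HMOX1, encoding heme oxygenase, was at 483 and 475 against 120.4 and 125 CPM (1.97 ± 0.06), with the VHL-restored line close to the parental 142 and 139.6 CPM. AKR1B10 (5.09 ± 0.13), OSGIN1 (3.07 ± 0.14), SRXN1 (1.71 ± 0.07) and GCLM (1.52 ± 0.08) followed. NFE2L2, the NRF2 gene itself, was at 120.0 ± 7.03 and 134 ± 0.539 CPM (-0.16 ± 0.06), slightly higher in the VHL-restored line. That call on NFE2L2 was lost without knockout replicate 1 (adjusted p = 0.236, edgeR), without VHL-restored replicate 2 (0.0548) and without either parental library (0.0636 and 0.0637). AKR1C3, an aldo-keto reductase, was higher in the VHL-restored line as well (-2.29 ± 0.19).

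**Figure D3:**
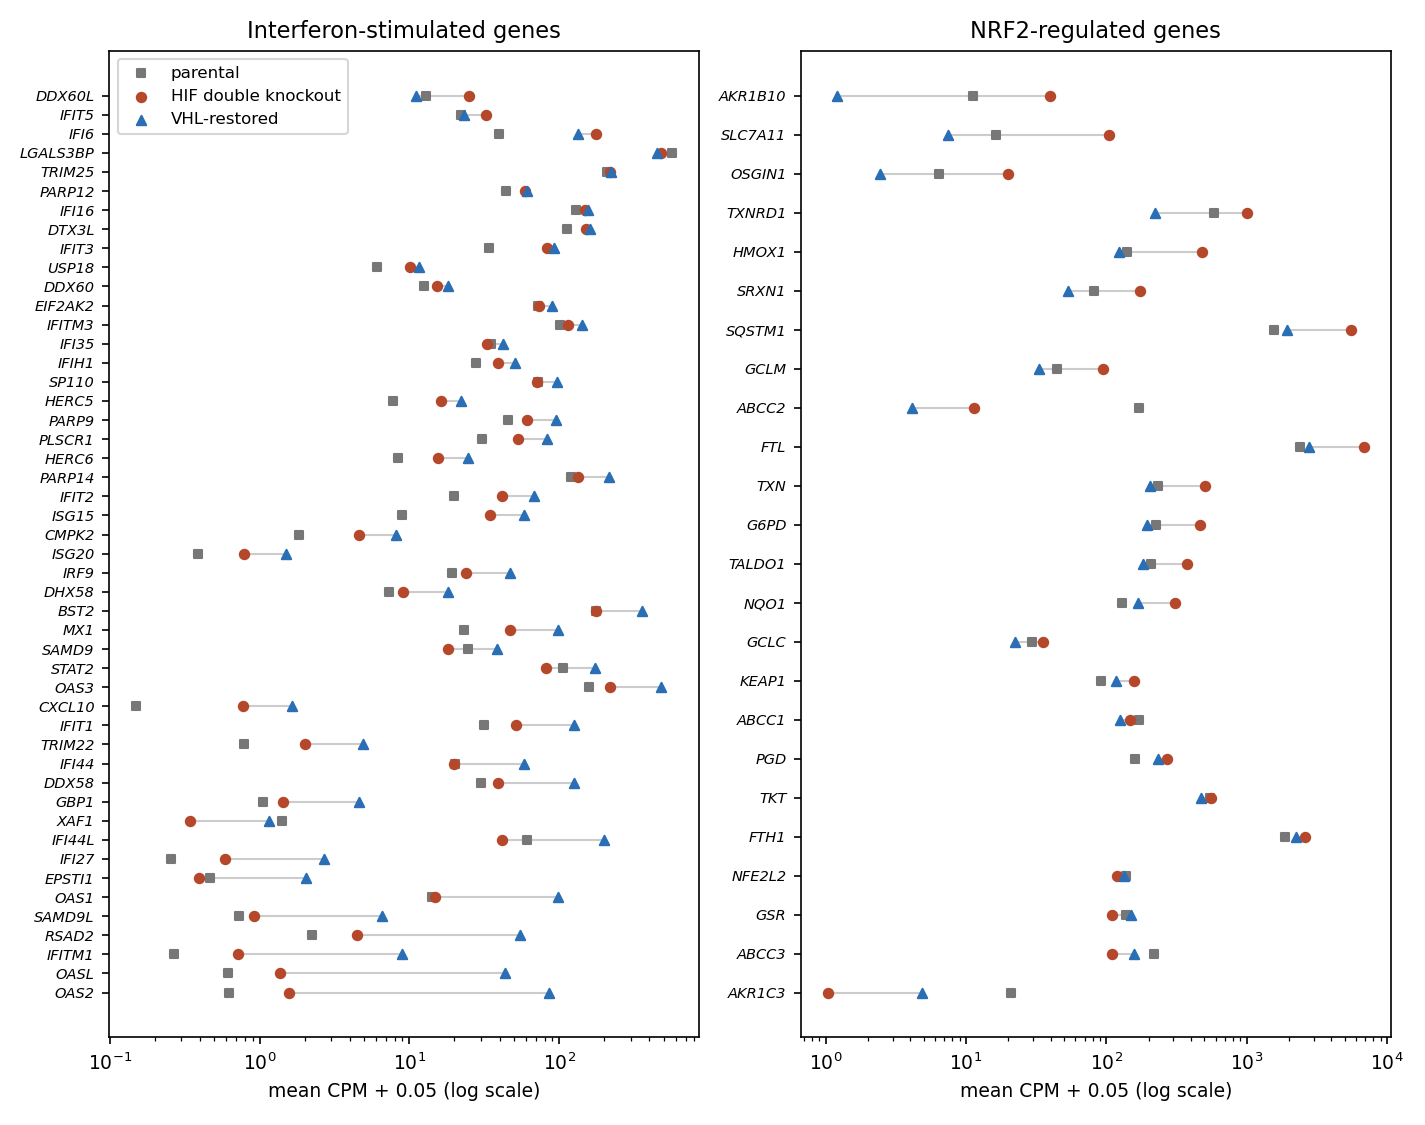
Mean level in CPM + 0.05 (log scale) of 48 of the 49 interferon-stimulated and all 24 NRF2-regulated genes with at least 1 CPM in either engineered line, ordered by their difference, in parental (squares), HIF double-knockout (circles) and VHL-restored cells (triangles). Triangles lie to the right of circles for most interferon-stimulated genes and to the left for most NRF2-regulated genes.

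The letters TGACNNNGC, the core of the antioxidant response element, occurred on either strand in 13.3% of all RefSeq windows and in 5 of 20 matched to the NRF2 list (25%). Of the 5 with a match, 3 were higher in the knockout and 0 in the VHL-restored line, and of the 15 without, 11 and 2. The promoter of TXNRD1 at chr12:104215529-104215808 (GRCh38.p14, plus strand) has 2 matches, 1 on each strand, in capitals below. It is shown because TXNRD1 is the most abundant member of the list with a match, and the gene also lies on a chromosome whose other genes were mostly higher in the VHL-restored line.
TXNRD1: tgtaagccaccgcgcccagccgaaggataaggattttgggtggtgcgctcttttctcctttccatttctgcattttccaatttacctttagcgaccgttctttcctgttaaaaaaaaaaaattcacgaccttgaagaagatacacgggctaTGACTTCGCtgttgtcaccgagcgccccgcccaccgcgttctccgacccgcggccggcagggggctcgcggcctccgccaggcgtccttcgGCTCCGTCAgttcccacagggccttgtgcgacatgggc

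Genes regulated by ATF4 were higher in the knockout line in 20 of 32 cases and in the VHL-restored line in 7, with a median of 0.45. SLC7A11 (3.81 ± 0.09) and STC2 (3.41 ± 0.06), given above with other lists, were also members and had the widest gaps on the knockout side. ATF5 was at 239.8 and 217 CPM in the knockout and 77.3 and 78.1 CPM in the VHL-restored libraries (1.56 ± 0.07), and the stress cytokine GDF15 at 207 and 195 against 72.8 and 72.4 CPM (1.47 ± 0.06). ATF5 overlaps other genes, so its reads may be shared. NUPR1, AARS (-0.76 ± 0.06) and DDIT4 of this list were higher in the VHL-restored line. Ribosome assembly factors were higher in the knockout in 24 of 30 cases and in the VHL-restored line in 1, with a median of 0.38. The list's gaps were modest: RRP12 was at 174 and 159 against 76.1 and 76.01 CPM (1.13 ± 0.07), NOLC1 at 375 and 371 against 174 and 168 CPM (1.12 ± 0.06) and MYC, a transcription factor for such genes, at 261 and 261 against 127 and 128 CPM (1.04 ± 0.06). Chaperones of the endoplasmic reticulum were higher in the knockout in 14 of 23 cases and in the VHL-restored line in 2 (median 0.35). Genes often used as references, described below, were higher in the knockout in 13 of 22 cases, with a median of 0.44. The ATF4 median was close to that, and the ribosome assembly and chaperone medians were below it.

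Targets of NF-kB were found on both sides. Of 32, 17 were higher in the knockout and 8 in the VHL-restored line, with a median of 0.69. The count on the VHL-restored side was near the 28% of all genes called there. At least 2-fold apart were 11 and 6 of these, beside 7.18% and 9.45% of all genes. Next to IL6, the knockout line held more TRAF1, a survival adaptor, at 214 and 187 against 39.4 and 41.4 CPM (2.31 ± 0.07), and more NFKB2, encoding p100, at 145 and 129 against 33.98 and 33.9 CPM (2.01 ± 0.07). ICAM1, an adhesion receptor for leukocytes, was at 339 and 311 against 97.2 and 103 CPM (1.70 ± 0.06). On the other side TNFAIP2 was at 176 and 177 CPM in the VHL-restored against 73.4 and 74.9 CPM in the knockout libraries (-1.25 ± 0.06) and the chemokine CCL5 at 9.69 and 11.1 CPM in the VHL-restored against 2.56 and 2.60 CPM in the knockout libraries (-2.01 ± 0.14). TNF was at 1.29 and 0.858 CPM in the VHL-restored line and had 4 counts in the knockout, and VCAM1 was at 0.572 and 0.608 CPM with 0 counts in the knockout (at least 10.8-fold higher).

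Feedback genes of ERK signalling were higher in the knockout in 10 of 18 cases and in the VHL-restored line in 3 (median 0.73). DUSP5, a nuclear ERK phosphatase, was at 33.6 and 31.5 against 3.79 and 2.97 CPM (3.27 ± 0.12) and DUSP1 at 131 and 139 against 33.4 and 29.5 CPM (2.10 ± 0.08). DUSP6, SPRY4 and SPRED2 did not pass, and SPRED3 (-2.81 ± 0.16), DUSP4 (-1.69 ± 0.20) and PHLDA1 were higher in the VHL-restored line. Of 22 AP-1 and immediate early factors, 13 were higher in the knockout and 5 in the VHL-restored line (median 0.52, beside 0.44 for the reference genes). MAFF (2.50 ± 0.13), ATF3 (2.39 ± 0.10) and FOSB (2.17 ± 0.18) led the first group, and EGR1 (-2.12 ± 0.24) and FOSL2 (-0.95 ± 0.06) were in the second. HBEGF, a ligand of the EGF receptor, was at 87.1 and 79.5 CPM in the knockout and 12.3 and 12.1 CPM in the VHL-restored libraries (2.77 ± 0.08), whereas ERBB2, a receptor of the same family, was at 17.4 and 16.7 against 61.1 and 56.7 CPM (-1.79 ± 0.08). Over the 12 EGFR family genes and ligands, 5 were higher in the knockout and 3 in the VHL-restored line, beside 28% of all genes in each direction.

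Of 22 targets of YAP and TAZ 11 were higher in the knockout and 7 in the VHL-restored line, with a median of 0.18. The 6 that were at least 2-fold apart were all higher in the knockout, against 7.18% of all genes at least 2-fold higher there. ANKRD1 was at 503 and 501 CPM in the knockout, 27.5 and 26.3 CPM in the VHL-restored and 107 and 104 CPM in the parental libraries (4.22 ± 0.07, adjusted p = 1.3e-29, edgeR). The matricellular genes CTGF and CYR61 were 2.23-fold and 2.19-fold higher in the knockout. The others were F3, tissue factor (1.63 ± 0.07), the ligand TGFB2 (1.16 ± 0.08) and WWTR1, encoding TAZ itself (1.04 ± 0.06). Genes of TGF-beta ligands, receptors and responses divided into 12 and 13 of 27 (median -0.12), beside 28% of all genes in each direction. INHBA, encoding the activin A subunit, was at 393 and 368 against 77.4 and 86.98 CPM (2.21 ± 0.07), and TGFBR2, the type II receptor, at 93.2 and 97.03 against 268 and 248 CPM (-1.44 ± 0.06).

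Epithelial junction genes lay on the side of the VHL-restored line. Of 31, 20 were higher there, 17 of them at least 2-fold, and 8 were higher in the knockout, with a median of -1.26. CDH1, encoding E-cadherin, was at 8.51 and 8.36 CPM in the VHL-restored and 3.57 and 3.53 CPM in the parental libraries and had 0 counts in the knockout, which makes it at least 155-fold higher in the VHL-restored line. EPCAM, an epithelial adhesion molecule, was at 50.8 and 59.4 CPM in the VHL-restored against 10.5 and 11.1 CPM in the knockout libraries (-2.35 ± 0.09), and CDH16, the kidney cadherin, at 21.1 and 23.2 CPM in the VHL-restored against 1.64 and 1.83 CPM in the knockout libraries (-3.68 ± 0.13). The parental libraries held 48.8 and 45.96 CPM of EPCAM and 31.9 and 28.7 CPM of CDH16, so for all 3 genes the knockout was far below the parental cells. The abundant members CLDN2, JUP, F11R and DSP were 2.68-fold, 2.40-fold, 2.27-fold and 2.02-fold higher in the VHL-restored line. TJP1 (0.33 ± 0.06), DSG2 (0.62 ± 0.07) and CLDN12 (1.05 ± 0.09) were higher in the knockout.

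Keratins had the same direction, with 8 of 16 higher in the VHL-restored line, 2 in the knockout and a median of -1.37, or -0.79 with genes at 0 in a line set to their bounds. KRT81 was at 16.02 and 16.3 CPM in the VHL-restored against 1.06 and 1.01 CPM in the knockout libraries (-3.96 ± 0.15) and KRT8 at 1402 and 1506 CPM in the VHL-restored against 847 and 831 CPM in the knockout libraries (-0.79 ± 0.05). Of 13 mesenchymal genes 7 were higher in the knockout and 3 in the VHL-restored line (median 0.24), beside 28% of all genes in each direction. VIM, encoding vimentin, was at 4665 and 4768 against 3016 and 3210.5 CPM (0.60 ± 0.05). Both lines were below the parental 7022 and 7020.2 CPM, and the genes beside VIM on chromosome 10 had a median of 0.42. CDH2, encoding N-cadherin, was at 621 and 621 against 429 and 407 CPM (0.57 ± 0.05). The 3 members on the other side were S100A4 (-1.25 ± 0.16), TAGLN (-0.93 ± 0.37) and SPARC (-0.48 ± 0.06). TAGLN was at 0.821 and 0.272 CPM in the knockout libraries. Its call was lost with DESeq2 (adjusted p = 0.171, DESeq2) and with the 4 libraries alone (adjusted p = 0.0983, edgeR). Without knockout replicate 2 its log2 difference was -0.38.

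Beside 28% of all genes called in each direction, 8 of 19 renal tubule genes were higher in the VHL-restored line and 2 in the knockout (median -1.09). Most were near 0: SLC12A3, the thiazide-sensitive cotransporter of the distal tubule, was at 9.44 and 8.005 CPM in the VHL-restored against 0.615 and 0.505 CPM in the knockout libraries (-3.94 ± 0.20) and MIOX, which degrades inositol in the proximal tubule, at 4.83 and 6.36 CPM in the VHL-restored against 0.615 and 0.505 CPM in the knockout libraries (-3.30 ± 0.23). Among 27 renal lineage transcription factors 8 were higher in the knockout and 9 in the VHL-restored line, near the 28% of all genes called in each direction. PAX2 was at 15.9 and 14.8 CPM in the knockout and 0.858 and 1.36 CPM in the VHL-restored libraries, with 1.48 and 1.85 CPM in the parental ones (3.79 ± 0.16). SALL1 went the other way, at 0.376 and 0.350 against 19.96 and 17.4 CPM, with 44.4 and 37.6 CPM in the parental libraries (-5.67 ± 0.20).

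Matrix genes were found on both sides. Of 26 collagen chains 7 were higher in the knockout and 8 in the VHL-restored line, near the 28% of all genes called in each direction. The 3 main chains of collagen VI were all on the knockout side, COL6A1 at 385 and 359.7 against 129.6 and 118 CPM (1.59 ± 0.06), COL6A2 at 369.8 and 359 against 91.2 and 92.3 CPM (1.99 ± 0.06) and COL6A3 at 459 and 442 against 68.6 and 57.5 CPM (2.83 ± 0.07). The basement membrane chains COL4A3 (-2.41 ± 0.19), COL4A4 (-2.91 ± 0.17) and COL4A5 (-5.44 ± 0.23) were on the other side, while COL4A1 and COL4A2, at 631 ± 9.22 and 891 ± 33.5 CPM in the knockout, did not pass, although COL4A1 did without VHL-restored replicate 1 (log2 difference 0.15, adjusted p = 0.0179, edgeR). Of 18 fibronectin and integrin genes 4 were higher in the knockout and 8 in the VHL-restored line, beside the same 28% in each direction. ITGB6, the epithelial integrin chain, was at 62.4 and 55.8 CPM in the VHL-restored against 5.47 and 5.24 CPM in the knockout libraries (-3.46 ± 0.10), and ITGB2, the leukocyte integrin chain, at 6.98 and 5.86 CPM in the VHL-restored against 45.9 and 41.3 CPM in the knockout libraries (2.76 ± 0.10). ITGB2 and its antisense gene overlap, and the sources used here do not say whether counting used strand, so their reads cannot be told apart. Of 29 genes of matrix crosslinking and proteolysis 14 were higher in the knockout and 7 in the VHL-restored line, beside the same 28%. The plasminogen activators were on opposite sides. PLAT, the tissue type, was at 127 and 129.6 against 25.6 and 25.9 CPM (2.31 ± 0.07) and PLAU, the urokinase type, at 2.15 and 2.25 against 13.6 and 15.7 CPM (-2.73 ± 0.14). MMP2 had 3 counts in the knockout and was at 1.65 and 1.47 CPM in the VHL-restored and 12.9 and 10.8 CPM in the parental libraries.

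Genes of the cell cycle differed by less. Of 36 S phase genes 17 were higher in the VHL-restored line and 10 in the knockout (median -0.13), and of 36 mitotic genes 8 and 15 (median 0.06), with MCM3, a subunit of the replicative helicase, the only member of either list at least 2-fold apart (-1.21 ± 0.06). Of 29 genes regulated by p53, 16 were higher in the knockout and 10 in the VHL-restored line (median 0.20), with CDKN1A, the main cell cycle inhibitor among them, not passing (0.07 ± 0.06). Of 25 cholesterol genes 6 were higher in the knockout and 11 in the VHL-restored line, and of 30 genes of lipid droplets and fatty acids 8 and 11. The counts of this paragraph stand beside 28% of all genes called in each direction.

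Among 4 cancer-testis genes 2 were higher in the knockout and 1 in the VHL-restored line. Among 15 imprinted genes 5 were higher in the knockout and 7 in the VHL-restored line. Both lists stand beside 28% of all genes called in each direction. H19 was at 10.3 and 9.01 CPM in the VHL-restored and 0.923 and 0.893 CPM in the knockout libraries (-3.40 ± 0.17), and its neighbour IGF2 at 5.12 and 3.11 CPM in the VHL-restored and 0.137 and 0.155 CPM in the knockout libraries (-4.78 ± 0.35). The parental libraries held more of both, 21.6 and 22.6 CPM of H19 and 26.4 and 23.3 CPM of IGF2. CDKN1C, a cell cycle inhibitor, was at 16.1 and 17.4 CPM in the knockout against 2.22 and 2.79 CPM (2.74 ± 0.13). Of 39 clustered protocadherins 25 were higher in the VHL-restored line and 2 in the knockout (median -0.28). The gamma genes of this cluster share their 3' exons, and most had nearly equal levels, with a median of 69.9 CPM in the knockout and 85.1 CPM in the VHL-restored line over 20 genes, so that count is not one of separate transcripts.

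Several defining markers of other cell types were at or near 0, but not all. Of 9 leukocyte markers 2 were higher in each line, their summed level was 70.8 to 74.7 CPM in the knockout and 26.9 to 29.8 CPM in the VHL-restored libraries, and PTPRC, the pan-leukocyte gene CD45, had 0 counts in all. CD74, the invariant chain, made up most of that gap, at 48.7 and 47.2 against 1.40 and 1.64 CPM (4.98 ± 0.12). Of 4 endothelial markers 2 were higher in the VHL-restored line, with a summed level of 0.308 to 0.311 CPM in the knockout and 2.18 CPM in both VHL-restored libraries and with PECAM1 at 0. Of 8 fibroblast markers 3 were higher in the VHL-restored line and 1 in the knockout, with sums of 30.1 to 30.5 and 42.4 to 43.1 CPM and with DCN at 0 in both lines. PDGFRB, a receptor of fibroblasts and pericytes, was at 2.39 and 2.25 CPM in the knockout, 14.2 and 14.3 CPM in the VHL-restored and 8.86 and 8.69 CPM in the parental libraries (-2.62 ± 0.13). COL1A1, a chain of collagen I, was at 1.37 and 1.44 CPM in the knockout, 10.1 and 8.29 CPM in the VHL-restored and 8.49 and 8.60 CPM in the parental libraries (-2.71 ± 0.16). ACTA2, smooth muscle actin, was at 24.02 ± 0.408 against 15.9 ± 0.368 CPM (0.59 ± 0.09). The marker counts of this paragraph stand beside 28% of all genes called in each direction. The part of other cells in the results was not tested. In bulk RNA, fewer cells of a kind and less RNA per cell cannot be told apart. Of 22 genes often used as references 13 were higher in the knockout and 4 in the VHL-restored line, with a median of 0.44. ACTB was at 7401 and 7107 against 4096 and 4318 CPM (0.79 ± 0.05), and the genes beside it on chromosome 7 had a median of 0.78. GAPDH did not pass (0.07 ± 0.05).

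**Figure D4:**
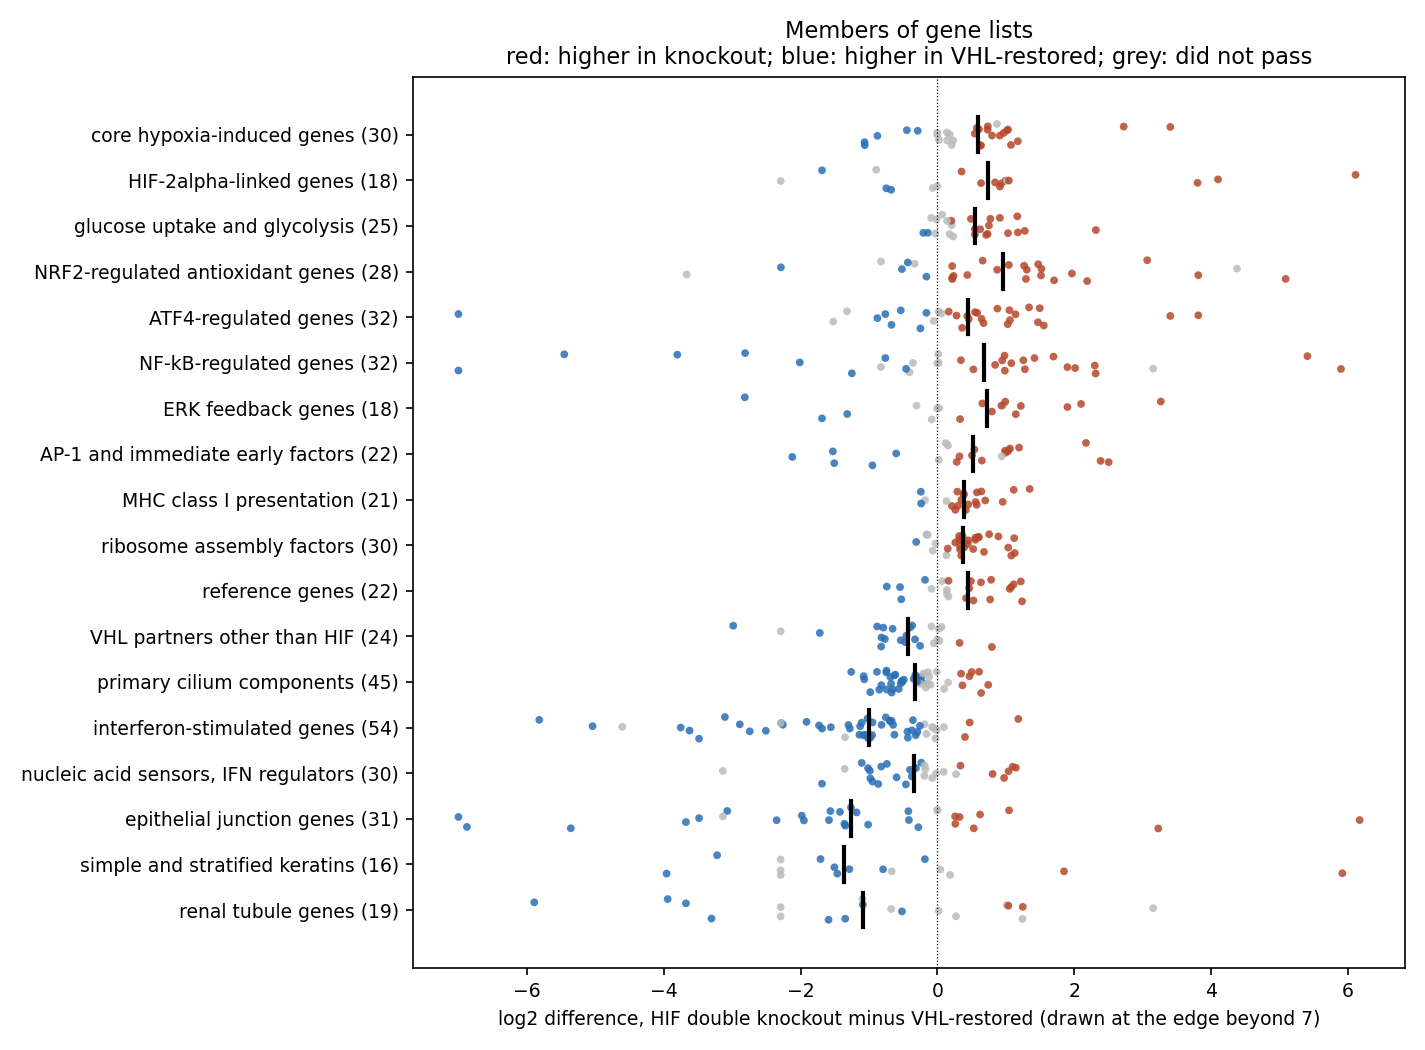
Log2 difference of each tested member of 18 gene lists, knockout minus VHL-restored, in red where called higher in the knockout, blue where called higher in the VHL-restored line and grey where not passed, with the list's median as a black bar, the number tested in brackets and points beyond 7 drawn at the edge. Members of the NRF2 list lie mostly to the right of 0 and those of the interferon, junction and keratin lists mostly to the left.

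Some genes were detected well in one line and barely or not at all in the other. With at most 3 counts over a line and at least 1 CPM in both libraries of the other, 19 genes were present in the knockout line and 41 in the VHL-restored line. Of the 19, 11 were also at 1 CPM or more in the parental cells and 1 had at most 3 counts there. Of the 41, the numbers were 14 and 8. Genes of the first kind include APOBEC3G, an antiviral deaminase, at 7.80 and 8.31 CPM in the knockout and 5.96 and 6.04 CPM in the parental libraries with 0 counts in the VHL-restored line, and PCDHB2, a protocadherin, at 4.65 and 5.83 CPM in the knockout and 7.75 and 7.19 CPM in the parental libraries with 0 counts in the VHL-restored line. RBFOX3, a splicing factor of neurons, had 0 counts there too, against 4.24 and 3.81 CPM in the knockout and 2.56 and 2.95 CPM in the parental libraries. Genes of the second kind include TIMP2, a metalloproteinase inhibitor, at 1.29 and 1.18 CPM in the VHL-restored and 39.3 and 35.2 CPM in the parental libraries with 0 counts in the knockout. NR1H4, the bile acid receptor FXR, was at 3.11 and 3.22 CPM in the VHL-restored and 19.8 and 18.2 CPM in the parental libraries with 2 counts in the knockout. The zinc finger genes ZNF542 and ZNF506 were at 6.63 ± 0.274 and 4.31 ± 0.831 CPM with 0 counts and 1 count. NR1H4 and the 2 zinc finger genes were picked after their values were seen.

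The direction of the difference was also shared by neighbouring genes. Of 12557 genes at 1 CPM or more, 12260 were placed on chromosomes by symbol with RefSeq on GRCh38.p14, used for order only, and 38% of the 12557 were called higher in the knockout line and 36.3% in the VHL-restored line. On chromosome 21, 80.7% of 119 genes were called higher in the knockout and 5.88% in the VHL-restored line, with a median log2 difference of 0.76. On chromosome 12, 68.8% of 666 were called higher in the VHL-restored line and 11.4% in the knockout, with a median of -0.47. Chromosomes 10 (median 0.49), 7 (0.41) and 13 (0.35) leaned to the knockout and chromosome 9 (-0.41) to the VHL-restored line. These medians were steady over the 4 pairs of single libraries, from 0.72 to 0.76 on chromosome 21 and from -0.48 to -0.44 on chromosome 12. Between the 2 libraries of a line no chromosome median exceeded 0.066 in size. Set beside the parental cells, which both differences share, chromosome 21 had a median of 0.14 in the knockout and -0.62 in the VHL-restored line, and chromosome 12 had -0.05 and 0.45.

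**Figure D5:**
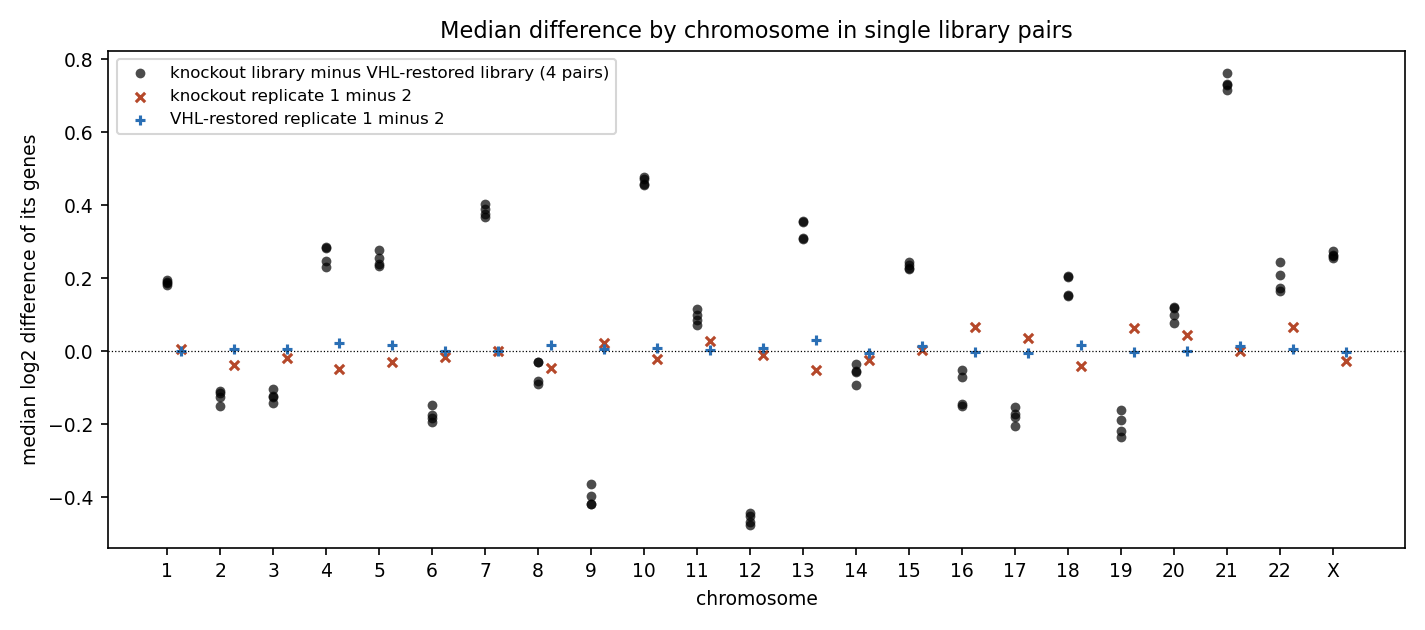
Median log2 difference of the genes at 1 CPM or more on each chromosome, for the 4 pairs of a knockout and a VHL-restored library (black points) and for the 2 libraries of each line (crosses). Chromosomes 21 and 12 are farthest from 0, and the differences between replicates stay within 0.066 of it.

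Within chromosomes the leaning was stronger in runs of 51 neighbouring genes. The lowest run median was -1.07, on chromosome 9 from ANXA2P2 to SLC25A51, where 3.92% of genes had a positive difference. Another was -0.87, on chromosome 14 from ATXN3 to TNFAIP2. The highest were 0.84 on chromosome 7 from PRKAR1B to ZDHHC4, where 94.1% of genes had a positive difference, and 0.83 on chromosome 21 from HSPA13 to DOPEY2. What these runs share beyond position was not tested.

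Several results above lie in such runs, so the named genes and the lists were also read relative to the median of the 25 genes on either side. Examples follow. IFNAR1 and IFNGR2 are on chromosome 21, where the median of their neighbours was 0.79, and their own excess over it was 0.25 and 0.35. DDX58 is on chromosome 9, and its difference of -1.69 became -0.77 relative to neighbours. OAS2 and OASL are on chromosome 12 with neighbours at -0.69 and -0.74, and kept -5.13 and -4.30. HIF1A and EPAS1 stood at -3.82 and -2.79 relative to theirs. Differences shrank for CUL2 (0.80 to 0.27), USP20 (-0.64 to -0.21), STAT2 (-1.11 to -0.51), NOLC1 (1.12 to 0.645) and PGAM1 (1.28 to 0.75). They grew for other genes, such as TXNRD1 (2.19 to 2.69) and TAP2 (0.70 to 1.29). Over lists, the interferon median went from -0.996 to -0.95, the NRF2 median from 0.96 to 1.00, the junction median from -1.26 to -1.25 and the core hypoxia median from 0.59 to 0.40. Other medians shrank by more: that of reported VHL partners went from -0.42 to -0.25, that of NF-kB-regulated genes from 0.69 to 0.38 and that of the reference genes from 0.44 to 0.27. Those of the HIF-2alpha-linked and cilium genes went from 0.74 to 0.50 and from -0.32 to -0.23. The ribosome assembly median went from 0.38 to 0.43, the ATF4 median from 0.45 to 0.51 and the chaperone median from 0.35 to 0.38. The ribosome assembly, chaperone and MHC class I medians were below that of the reference genes before this reading and above it after. The ATF4 median was close to it before and above it after. That of MHC class I genes went from 0.39 to 0.67, and that of clustered protocadherins went from -0.28 to -0.01.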

How the data were processed

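Libraries were made from poly(A) RNA with the Kapa mRNA Hyper Prep kit, per the labels' protocols. The authors deposited 1 table of whole-number counts per gene symbol for all 6 libraries. Although the file is labelled as normalized, its columns are whole numbers with unequal totals, so they were used as raw counts. Named tools were featureCounts 2.0.8, HISAT2 2.2.1, limma 3.58.1, Trimmomatic 0.39 and FastQC 0.74, with the builds hg38 and hg19 and no role for either, per the submitters' processing notes. The sources used here do not say whether counting used strand or shared reads between overlapping genes. Values of overlapping genes are therefore uncertain, such as C15orf48 and MIR147B, MIR205HG and MIR205, RSAD2 and CMPK2, KRT81 and KRT86, ERBB2 and MIEN1, CUL2 and CREM, MAFF and TMEM184B, ERAP2 and ERAP1, IFNGR2 and TMEM50B, and COL4A4 and RHBDD1.

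The 18273 genes with a count in some library were fitted in R 4.3.3 with edgeR 4.0.16 (TMM scaling, quasi-likelihood test), with the 3 group means and all 6 libraries sharing 1 estimate of spread. The prior count was 0.125, the biological coefficient of variation was 4.41%, and p-values were Benjamini-Hochberg adjusted over all genes, with calls at 0.05. A limit that a count of 0 allows is 3 counts over a line. The groups share replicate numbers. Deviations of same-numbered libraries correlated at 0.0163 between the 2 lines, 0.199 between knockout and parental and -0.00854 between VHL-restored and parental. With 2 libraries per group these values cannot exclude pairing, and the fit used none. On simulated data for this comparison (18273 genes, 50 changed per size), 30%, 92%, 96% and 100% of genes changed 1.2-fold, 1.5-fold, 2-fold and 4-fold were recovered, with 3.64% false calls.

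Genes named were HIF1A, EPAS1, ARNT and VHL; the 15 highest and 15 lowest log2 differences among called genes at 10 CPM or more; the 10 largest CPM differences in each direction; up to 6 called members per list with the largest difference; and the top 8 genes nearly absent from a line. Further list members were named as examples after their values were seen. The members and the 42 lists were chosen with earlier results of these data known. The reading relative to neighbouring genes was added after the chromosome medians were seen. Sequences come from RefSeq tables for GRCh38.p14. DESeq2 1.42.0, limma-voom, other scalings, a filter on low counts, the 4 libraries alone, a replicate block and leaving out each library were tried as alternatives.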

Additional observations from a re-analysis of the deposited data

How the results depend on the processing

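The count of called genes went from 10225 to between 9053 (DESeq2) and 10605 (limma-voom), and the count at least 2-fold apart from 3038 to between 2687 (DESeq2) and 3563 (limma-voom). DESeq2 shared 9040 calls with edgeR. Upper-quartile scaling moved the median of all genes by -0.047, with 46.3% of calls then higher in the knockout line against 50%. Leaving out each library in turn gave 9019 to 9679 called genes and 2798 to 2962 at least 2-fold apart, and where 1 library of a line remained it was assumed to vary like the other groups. The replicate block gave 10458 calls, 10165 of them shared with the fit without it, and 2995 at least 2-fold apart. It also brought PDK1 past the threshold (adjusted p = 0.0404, edgeR), as the filter on low counts did (0.0468). The cause was not tested.

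Genes barely found in one line depended on the level required in the other. At 0.5 CPM they numbered 35 in the knockout and 71 in the VHL-restored line, and at 5 CPM 5 and 13. Of 339 named genes, 325 were called, 26 of these lost the call under at least 1 of 13 alternatives, 6 uncalled genes gained it and 0 reversed. Of the uncalled genes, 8 near 0 changed sign without passing. KRT18 and PAX8 lost their calls without knockout replicate 2, and CUBN passed without VHL-restored replicate 2 (adjusted p = 0.027, edgeR). The median of the 12 EGFR family genes, -0.11, became 0.20 with the filter on low counts. At 5 CPM the extreme run medians were -1.02 and 0.86 and the extreme chromosome medians -0.47 and 0.75. Depth limits the differences that can be seen in genes near 3 counts, which is 0.101 to 0.132 CPM per library.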
